A study of Homo sapiens with 12 samples.

Results

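Metallothioneins and zinc transporters were followed across 12 Illumina expression arrays labelled SKBR-3, a HER2-amplified human breast cancer line. The 10 genes were chosen by name: the metallothioneins MT1A, MT1E, MT1F, MT1G, MT1X and MT2A, the zinc importers SLC39A4 and SLC39A6, the zinc exporter SLC30A1, and the zinc-sensing factor MTF1. This choice was made with earlier results of these data known. Every probe that the platform annotation gives one of these symbols was taken. That was 14 of 47318 probes, for 9 of the 20044 genes named on the array. MT1A was not among the genes named by the annotation used, so it has no value here. A probe was kept where it exceeded a background cutoff of 6.81 on the log2 scale on at least 2 of the 12 arrays, and 11 of the 14 probes passed, at least 1 for each of the 9 genes. Array values are the authors' normalized log2 intensities, and every difference given below is a log2 difference between group means with its standard error.

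The study asked how inhibitors of focal adhesion kinase (FAK) and of EGFR and HER-2 change expression, alone and combined. All cells carried the same line label and there were 6 groups of 2 arrays. The groups were untreated cells, 1 µM Y15, 1 µM PF04554878, 5 µM lapatinib, 1 µM Y15 with 5 µM lapatinib, and 1 µM PF04554878 with 5 µM lapatinib, with treatment for 24 hours. Y15 blocks the autophosphorylation of FAK, PF04554878 (defactinib) competes with ATP at the FAK kinase, and lapatinib inhibits the EGFR and HER2 kinases. No vehicle is named in the labels, and their extraction text refers to frozen tissue rather than to cultured cells. Nothing says that the 2 arrays of a group came from separate cultures, so the spread between them may be technical. The p-values of the main fit rest on this spread, pooled over the 6 groups and moderated across probes. Over the kept probes the untreated arrays lay farthest apart (root mean square SD 0.163, against 0.098 to 0.115 in the other groups). The pooled spread may therefore be too small for comparisons with untreated.

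Metallothioneins are small cysteine-rich proteins that bind zinc and copper and release them again. Their genes sit side by side in one cluster on chromosome 16, and their transcription rises when MTF1, a zinc-finger factor, senses free zinc and binds short metal response elements in their promoters. Proteins of the SLC39A (ZIP) family carry zinc into the cytosol, and proteins of the SLC30A (ZnT) family carry it out or into vesicles. SLC30A1 is the plasma membrane exporter and is itself a target of MTF1. SLC39A6, also called LIV-1, was first described as an estrogen-regulated gene of breast cancer cells, and SLC39A4 is the intestinal zinc importer mutated in acrodermatitis enteropathica.

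RefSeq promoters on GRCh38.p14 were available for 5 of the 10 genes: MT2A, MT1X, SLC30A1, SLC39A6 and MTF1. The 250 bases before each transcript start were searched on both strands for the core of the metal response element, TGCACNC or TGCGCNC, and no matches overlapped. Of 35116 RefSeq promoter windows of this length, 24.8% held at least 1 match, 0.37% held at least 4 and 0.0313% held at least 7. The sequences below are shown because the genes they precede are the ones whose levels are compared next, with metal response cores in capitals in either orientation. MT2A (chr16:56608334-56608583, plus strand) held 7 matches and MT1X (chr16:56682220-56682469, plus strand) held 4. SLC30A1 (chr1:211579162-211579411, minus strand) and SLC39A6 (chr18:36129341-36129590, minus strand) held 1 each, and the MTF1 window (chr1:37859593-37859842, minus strand) held 0. The palindromic estrogen response element, GGTCA and TGACC with any 3 bases between them, matched 0 of these 5 windows and 0.0399% of all windows. A match describes letters only, and binding was not measured.
MT2A: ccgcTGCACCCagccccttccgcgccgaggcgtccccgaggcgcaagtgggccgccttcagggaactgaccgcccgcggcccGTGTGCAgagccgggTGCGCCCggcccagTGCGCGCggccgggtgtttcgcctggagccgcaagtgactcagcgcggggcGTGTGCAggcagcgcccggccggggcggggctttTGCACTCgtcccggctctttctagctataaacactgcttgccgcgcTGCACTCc
MT1X: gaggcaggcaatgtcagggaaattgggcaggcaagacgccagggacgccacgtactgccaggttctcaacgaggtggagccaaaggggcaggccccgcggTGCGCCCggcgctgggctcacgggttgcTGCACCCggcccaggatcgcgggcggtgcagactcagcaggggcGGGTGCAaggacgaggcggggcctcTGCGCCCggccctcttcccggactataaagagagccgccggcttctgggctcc
SLC30A1: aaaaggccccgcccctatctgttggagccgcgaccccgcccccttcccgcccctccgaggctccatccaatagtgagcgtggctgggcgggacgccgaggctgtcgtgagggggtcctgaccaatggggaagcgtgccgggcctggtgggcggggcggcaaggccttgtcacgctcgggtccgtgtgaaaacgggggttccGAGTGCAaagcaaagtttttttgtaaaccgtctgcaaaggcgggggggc
SLC39A6: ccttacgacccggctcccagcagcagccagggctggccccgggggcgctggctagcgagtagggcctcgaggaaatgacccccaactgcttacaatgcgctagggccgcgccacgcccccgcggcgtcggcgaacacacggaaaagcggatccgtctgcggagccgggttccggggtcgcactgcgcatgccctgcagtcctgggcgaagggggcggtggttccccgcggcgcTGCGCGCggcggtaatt

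The 12 arrays did not all share 1 overall profile. Over the kept probes the 2 arrays of a group correlated at 0.988 to 0.996. Untreated arrays correlated with Y15 arrays, lapatinib arrays with those of Y15 plus lapatinib, and PF04554878 arrays with those of PF04554878 plus lapatinib, at 0.983 to 0.989. All 48 other pairs, which lie between these 3 sets of arrays, reached 0.893 to 0.95. Comparisons within a set are Y15 with untreated, Y15 plus lapatinib with lapatinib, and PF04554878 plus lapatinib with PF04554878. All others lie between sets, and the paragraphs on single genes hold both kinds. Between sets, a treatment and whatever else separates the sets cannot be told apart. Untreated replicate 2 correlated best with Y15 replicate 2. The luminal markers were all above background (6 of 6), as was the brightest probe of ERBB2, which encodes HER2 (group means 8.34 to 9.35). The other ERBB2 probes were below the cutoff on all 12 arrays. GRB7, which is amplified with ERBB2 in SKBR-3, averaged 7.21 to 8.07 on its brightest probe. ESR1 was above background too (9.85 to 10.44), and higher than ERBB2 in every group. SKBR-3 is known as a line without the estrogen receptor encoded by ESR1, so the ESR1 level goes against the label on all 12 arrays, and the groups are named here only as labelled. PGR, the progesterone receptor gene, averaged 7.83 on untreated arrays and 10.55 on lapatinib arrays.

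Markers of other cell types were near background apart from single genes. Passing the background filter were 0 of 5 endothelial, 2 of 7 fibroblast, 1 of 5 named leukocyte, 2 of 4 named basal epithelial and 1 of 4 adipocyte markers. The defining markers PTPRC, CD3E, KRT5, KRT14, PECAM1 and ADIPOQ were all below it. On the linear scale the summed basal markers (ACTA2 and CDH3) ran from 462 to 578 on untreated, 624 to 670 on Y15, 983 to 1080 on lapatinib, 819 to 827 on Y15 plus lapatinib, 879 to 942 on PF04554878 and 959 to 988 on PF04554878 plus lapatinib arrays. The single leukocyte marker (CD68) fell from 255 to 266 on untreated to 168 to 170 on lapatinib arrays, while a second, dimmer CD68 probe read 6.71 and 6.91 on average in those groups (log2). The single adipocyte marker (LEP) fell from 237 to 276 to 120 to 124. The summed luminal markers ran from 36195 to 37460 on the 4 arrays with PF04554878 and from 21272 to 27045 on the other 8. Their part in the results below was not tested, and in RNA from whole cultures fewer cells of a type and less RNA per cell cannot be told apart.

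MT2A, MT1X and MT1F, the metallothioneins well above background, were all lower with lapatinib and with Y15 plus lapatinib than in untreated cells, and did not pass the test with PF04554878 alone. MT1F moved most on this scale: it was 5.19-fold lower with lapatinib (difference -2.37 ± 0.10) and 5.2-fold lower with Y15 plus lapatinib (-2.38 ± 0.10). MT1X was 2.79-fold lower with lapatinib and MT2A 2.02-fold lower. With Y15 alone MT1F and MT1X were lower by less than with lapatinib, and MT2A did not pass the threshold. MT1G and MT1E lay at the edge of detection. The metallothionein transcripts are close to identical in sequence, and probe sequences were not used here, so how far each probe reads its own gene alone is uncertain.

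MT1F is one of the metallothionein 1 isoforms. Its log2 intensity was 9.64 and 9.47 on the untreated arrays, 8.64 and 8.81 with Y15, 7.19 and 7.17 with lapatinib, 7.23 and 7.12 with Y15 plus lapatinib, 9.71 and 9.74 with PF04554878, and 9.61 and 9.37 with PF04554878 plus lapatinib. The 4 arrays of lapatinib without PF04554878 were the lowest, the 2 Y15 arrays were intermediate, and the other 6 lay together at the top. Lapatinib and Y15 plus lapatinib overlapped, as did untreated and PF04554878 plus lapatinib, while the remaining neighbours in the order did not. Against untreated the adjusted p (limma, Benjamini-Hochberg over 19558 probes) was 5.69e-11 for lapatinib, 5.76e-11 for Y15 plus lapatinib and 0.000688 for Y15 (-0.83 ± 0.10, 1.77-fold lower). It was 0.223 for PF04554878 (0.17 ± 0.10) and 0.659 for PF04554878 plus lapatinib (-0.07 ± 0.10). Subtracting the background mode from all values enlarged the lapatinib difference of MT1F to -3.69 and that of the Y15 combination to -3.71, and it ended the Y15 call (adjusted p = 0.0531).

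MT1X, another metallothionein 1 isoform, read 9.84 and 9.57 on untreated arrays, 9.10 and 8.72 with Y15, 8.23 and 8.23 with lapatinib, 8.61 and 8.47 with Y15 plus lapatinib, 9.62 and 9.75 with PF04554878, and 9.62 and 9.12 with PF04554878 plus lapatinib. Its order was untreated, PF04554878 and PF04554878 plus lapatinib, whose arrays overlapped from one to the next, then Y15, Y15 plus lapatinib and lapatinib, which did not overlap. The decrease was -1.48 ± 0.15 with lapatinib (adjusted p = 9.84e-07), -1.17 ± 0.15 with Y15 plus lapatinib (1.26e-05) and -0.80 ± 0.15 with Y15 (0.011). The Y15 decrease did not pass without Y15 replicate 2 (-0.61, adjusted p = 0.155), with only the 4 arrays compared (0.0853) or after background subtraction (0.125). Differences were -0.02 ± 0.15 with PF04554878 (adjusted p = 0.936) and -0.34 ± 0.15 with PF04554878 plus lapatinib (0.0954). That last value passed without untreated replicate 2 (-0.47, adjusted p = 0.043) and without PF04554878 plus lapatinib replicate 1 (-0.59, 0.0111).

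MT2A is the main metallothionein 2 gene. On the untreated arrays it read 10.47 and 10.46, with Y15 10.04 and 9.83, with lapatinib 9.45 and 9.46, with Y15 plus lapatinib 9.87 and 9.50, with PF04554878 10.36 and 10.65, and with PF04554878 plus lapatinib 10.24 and 9.82. Untreated and PF04554878 arrays were the highest and overlapped, the lapatinib arrays were the lowest, and the 3 groups between overlapped from one to the next. Against untreated MT2A was lower with lapatinib (-1.01 ± 0.15, adjusted p = 2.86e-05), with Y15 plus lapatinib (-0.79 ± 0.15, 0.000339) and with PF04554878 plus lapatinib (-0.44 ± 0.15, 0.0252). The last of these fell below the threshold without either untreated array (adjusted p = 0.0618 and 0.0556), and without PF04554878 plus lapatinib replicate 2 the difference was -0.23 (0.311). It also missed the threshold after background subtraction (-0.48, adjusted p = 0.118). With Y15 the difference was -0.53 ± 0.15 (adjusted p = 0.0576), and it was 0.0456 when 1 probe per gene was tested. PF04554878 gave 0.04 ± 0.15 (0.871).

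**Figure D1:**
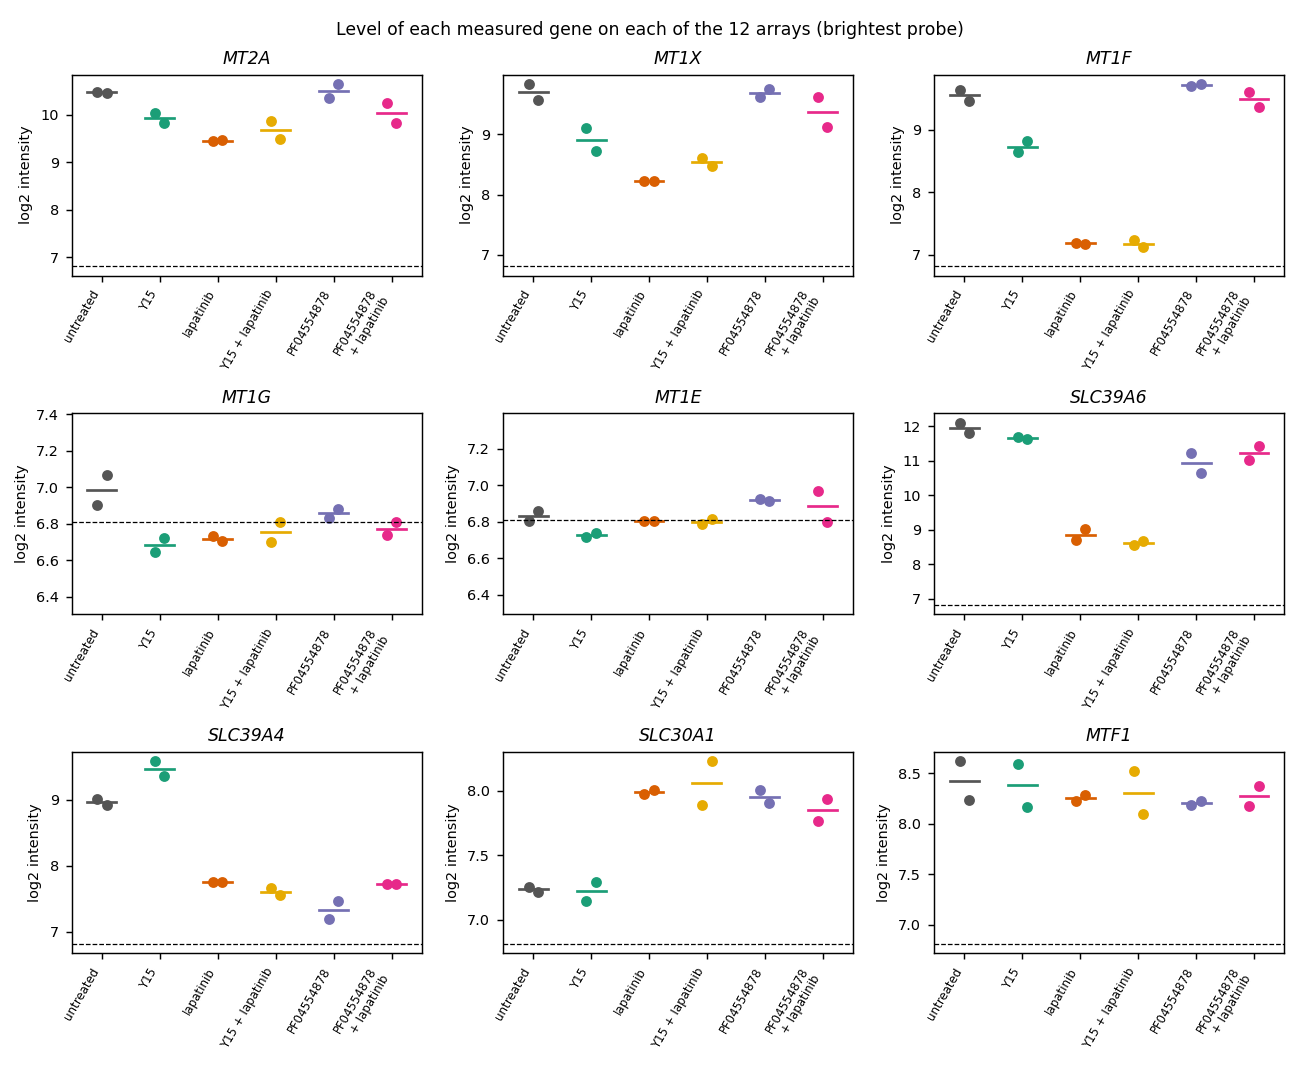
Log2 intensity of each of the 9 measured genes on the 12 arrays (vertical axis, own scale per panel) by labelled group (horizontal axis); points are arrays, short lines are group means of 2 arrays, and the dashed line is the background cutoff of 6.81. MT1F falls from 9.47 to 9.64 on untreated arrays to 7.17 to 7.19 on lapatinib arrays, while MT1E and MT1G straddle the cutoff.

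MT1G and MT1E were barely above background, and their folds are bounds or small. MT1G read 6.91 and 7.07 on the untreated arrays, 6.64 and 6.72 with Y15, 6.73 and 6.70 with lapatinib, 6.70 and 6.81 with Y15 plus lapatinib, 6.83 and 6.88 with PF04554878, and 6.74 and 6.81 with PF04554878 plus lapatinib. It was above the cutoff on 6 arrays and on no lapatinib or Y15 array, so its decrease with lapatinib was at least 1.13-fold (adjusted p = 0.0222). That call and the one for Y15 plus lapatinib (-0.23 ± 0.09, 0.0459) were lost without untreated replicate 2 (adjusted p = 0.155 and 0.253) and without either array of the treated group. Both also missed it with only the groups compared (0.0694 and 0.14), and the second with replicate number as a block (-0.25, 0.109). Background subtraction, which stretches differences between values near background, kept both calls and gave -1.52 and -1.26 (adjusted p = 0.0147 and 0.0336), so the size of the MT1G decrease depends on this choice. MT1E ran from 6.72 to 6.97 and was above the cutoff on 5 arrays, and its differences from untreated lay between -0.10 and 0.09 with none past the threshold (adjusted p from 0.464 to 0.81). A further MT1E probe stayed below the cutoff on all 12 arrays.

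The zinc importers SLC39A6 and SLC39A4 were lower in every treated group but Y15. SLC39A6 was 8.52-fold lower with lapatinib and 10.2-fold lower with Y15 plus lapatinib than in untreated cells, and SLC39A4 was 2.31-fold and 2.57-fold lower. With PF04554878 SLC39A6 was 2.04-fold lower and SLC39A4 3.11-fold lower. Y15 alone did not pass the test for SLC39A6, and SLC39A4 was 1.42-fold higher with it.

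SLC39A6 (first probe) read 12.11 and 11.80 on untreated arrays, 11.68 and 11.63 with Y15, 8.71 and 9.01 with lapatinib, 8.55 and 8.67 with Y15 plus lapatinib, 11.21 and 10.64 with PF04554878, and 11.01 and 11.43 with PF04554878 plus lapatinib. The 4 arrays of lapatinib without PF04554878 lay more than 1 unit below all others, and the only neighbouring groups that overlapped were those with PF04554878. The differences from untreated were -3.09 ± 0.17 with lapatinib (adjusted p = 1.02e-09), -3.34 ± 0.17 with Y15 plus lapatinib (4.04e-10), -1.03 ± 0.17 with PF04554878 (0.000222), -0.73 ± 0.17 with PF04554878 plus lapatinib (0.00317) and -0.30 ± 0.17 with Y15 (0.374). Without PF04554878 plus lapatinib replicate 1 the difference of that group was -0.52 (adjusted p = 0.0642). A second SLC39A6 probe read 11.52 and 11.30 untreated, 11.02 and 10.96 with Y15, 7.99 and 8.08 with lapatinib, 8.13 and 7.97 with Y15 plus lapatinib, 10.72 and 10.39 with PF04554878, and 10.61 and 10.89 with PF04554878 plus lapatinib. The 2 probes gave the same calls in all 10 comparisons, with -3.38 ± 0.12 for lapatinib (6.88e-12) and -0.42 ± 0.12 for Y15 (0.0784) from the second.

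SLC39A4 read 9.01 and 8.92 on untreated arrays, 9.59 and 9.36 with Y15, 7.75 and 7.76 with lapatinib, 7.66 and 7.56 with Y15 plus lapatinib, 7.19 and 7.47 with PF04554878, and 7.72 and 7.72 with PF04554878 plus lapatinib. No neighbouring groups overlapped: the Y15 arrays were the highest, then untreated, lapatinib, PF04554878 plus lapatinib, Y15 plus lapatinib and PF04554878. The means of lapatinib, PF04554878 plus lapatinib and Y15 plus lapatinib (7.76, 7.72 and 7.61) were too close for their order to be read. SLC39A4 was the only measured gene of the 9 that passed the test upward with Y15 (0.51 ± 0.11, adjusted p = 0.0188). This call was lost without Y15 replicate 1 (0.40, adjusted p = 0.188), without Y15 replicate 2 (0.62, 0.0507), with only the 4 arrays compared (0.124) and after background subtraction (0.25). SLC39A4 was lower with PF04554878 (-1.64 ± 0.11, 1.48e-08), lapatinib (-1.21 ± 0.11, 1.73e-07), Y15 plus lapatinib (-1.36 ± 0.11, 4.97e-08) and PF04554878 plus lapatinib (-1.25 ± 0.11, 2.7e-07). Background subtraction enlarged the PF04554878 difference to -2.63. Both other SLC39A4 probes stayed below the cutoff on all 12 arrays, between 6.36 and 6.59.

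SLC30A1, the exporter, moved opposite to the importers SLC39A4 and SLC39A6 in 4 of the 5 treated groups. Its first probe read 7.25 and 7.22 on untreated arrays, 7.15 and 7.29 with Y15, 7.98 and 8.01 with lapatinib, 7.89 and 8.23 with Y15 plus lapatinib, 8.01 and 7.91 with PF04554878, and 7.77 and 7.94 with PF04554878 plus lapatinib. The untreated and Y15 arrays overlapped at the bottom, and the other 4 groups overlapped from one to the next above them. Against untreated SLC30A1 was higher with lapatinib (0.76 ± 0.11, adjusted p = 3.49e-05), Y15 plus lapatinib (0.82 ± 0.11, 1.63e-05), PF04554878 (0.72 ± 0.11, 9.72e-05) and PF04554878 plus lapatinib (0.62 ± 0.11, 0.000367), which is 1.53-fold to 1.77-fold. Y15 gave -0.01 ± 0.11 (0.966). Neither SLC30A1 nor SLC39A6 passed in any comparison within a set of arrays, so all their calls lie between sets. After background subtraction the 4 increases were larger, at 1.27 to 1.60. The second SLC30A1 probe, which ran from 6.86 to 7.07 on the untreated and Y15 arrays and from 7.44 to 7.77 on the other 8, gave the same calls in all 10 comparisons (0.66 ± 0.09 for lapatinib, adjusted p = 2.6e-05).

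MTF1, the zinc-sensing transcription factor, did not pass the test in any of the 10 comparisons. It read 8.61 and 8.23 on untreated arrays, 8.59 and 8.17 with Y15, 8.23 and 8.28 with lapatinib, 8.52 and 8.09 with Y15 plus lapatinib, 8.18 and 8.23 with PF04554878, and 8.18 and 8.37 with PF04554878 plus lapatinib. The replicates of untreated, Y15 and Y15 plus lapatinib lay farther apart than any of the group means. The difference for lapatinib was -0.17, with a 95% interval from -0.50 to 0.17, and the one for PF04554878 was -0.22 (-0.55 to 0.12). Changes in MTF1 mRNA within these intervals were not detectable with 2 arrays a group.

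**Figure D2:**
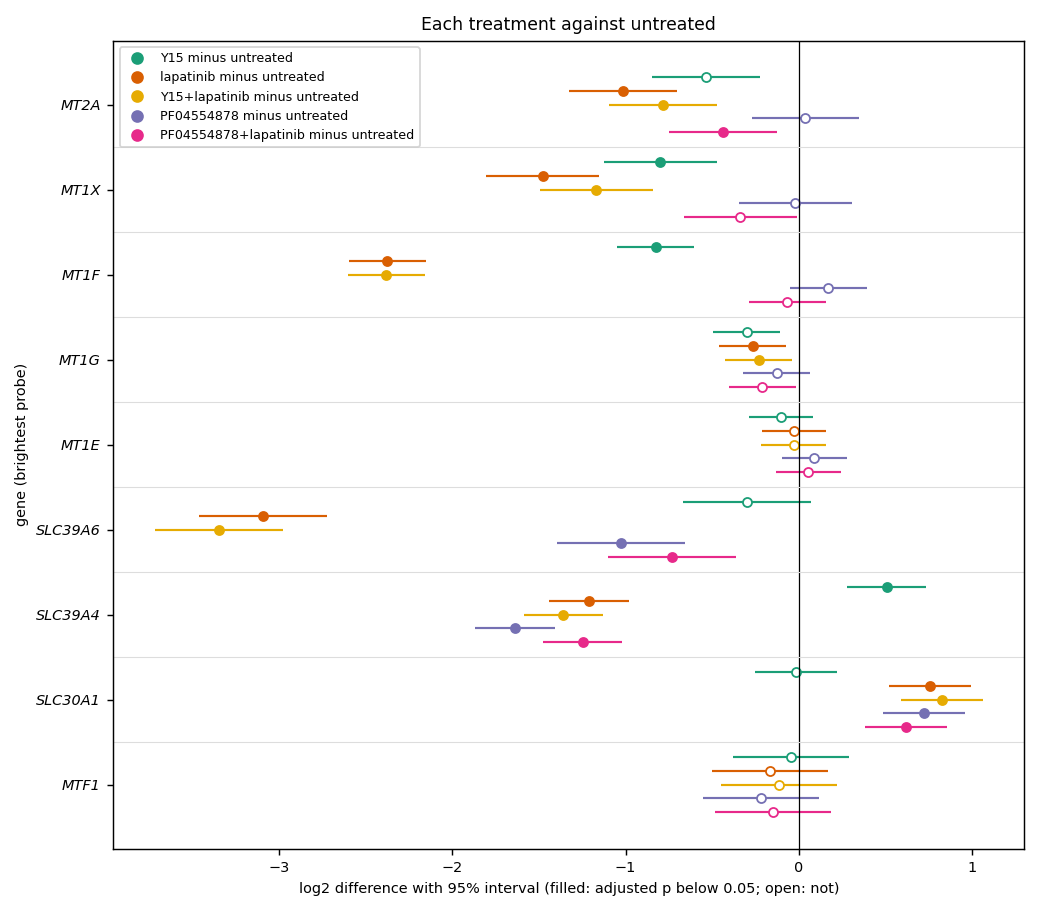
Log2 difference of each treated group from untreated (horizontal axis) for the 9 measured genes (vertical axis), from the brightest probe, with 95% intervals; filled points have an adjusted p below 0.05. SLC39A6 and MT1F reach -3.34 and -2.38 with Y15 plus lapatinib, and SLC30A1 lies between 0.62 and 0.82 in all treated groups but Y15.

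Counted over the 9 measured genes, lapatinib against untreated gave 1 higher and 6 lower, where 55.8% of 11440 genes passed the test (27.8% higher, 28% lower). The median difference of the 9 was -1.01, against -0.0051 over all genes. The arrays were normalized to nearly the same distribution of values, so a median near 0 over all genes is not an independent finding. Y15 plus lapatinib against untreated also gave 1 higher and 6 lower (54% of all genes), with a median of -0.79. PF04554878 against untreated gave 1 higher and 2 lower (44.5% of all genes), and PF04554878 plus lapatinib 1 higher and 3 lower (45.3%), both near the share over all genes, with medians of -0.02 and -0.21. Y15 against untreated, whose arrays shared an overall profile, gave 1 higher and 2 lower where 4.02% of all genes passed. In that comparison 5 of the 9 had an unadjusted p under 0.05 (limma). All 5 comparisons share the untreated arrays, and MT1G passed the background filter in part through the untreated arrays. The genes were also chosen with earlier results of these data known, so these counts are descriptions.

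Adding Y15 to lapatinib moved 0 of the 9 genes past the threshold in limma's test, where 10.6% of all genes passed, and 0 of the 9 had an unadjusted p under 0.05. The nearest was MT1X, 0.31 ± 0.15 higher with both drugs than with lapatinib (adjusted p = 0.239). It passed (0.0433) when only the 4 arrays compared were used. MT2A differed by 0.23 (95% interval -0.08 to 0.54), MT1F by -0.004 (-0.23 to 0.22), SLC39A6 by -0.25 (-0.62 to 0.12), SLC39A4 by -0.15 (-0.38 to 0.08) and SLC30A1 by 0.07 (-0.17 to 0.30).

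Adding lapatinib to PF04554878 moved 1 of the 9 genes, where 8.02% of all genes passed. SLC39A4 was 1.31-fold higher with both drugs than with PF04554878 alone (0.39 ± 0.11, adjusted p = 0.0407). That call was lost without PF04554878 replicate 1 (0.25, adjusted p = 0.365) and without either array of the combination (0.157 and 0.185), and background subtraction raised the value to 0.83 with an adjusted p of 0.104. It was also lost with replicate number as a block (0.0705) and with an intensity trend in the prior variance (0.0515). MT2A gave -0.48 ± 0.15 (0.0671), and it passed without PF04554878 plus lapatinib replicate 1 (-0.69, 0.0325). MT1F differed by -0.24 (0.227), MT1X by -0.32 (0.282) and SLC39A6 by 0.29 (0.402).

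**Figure D3:**
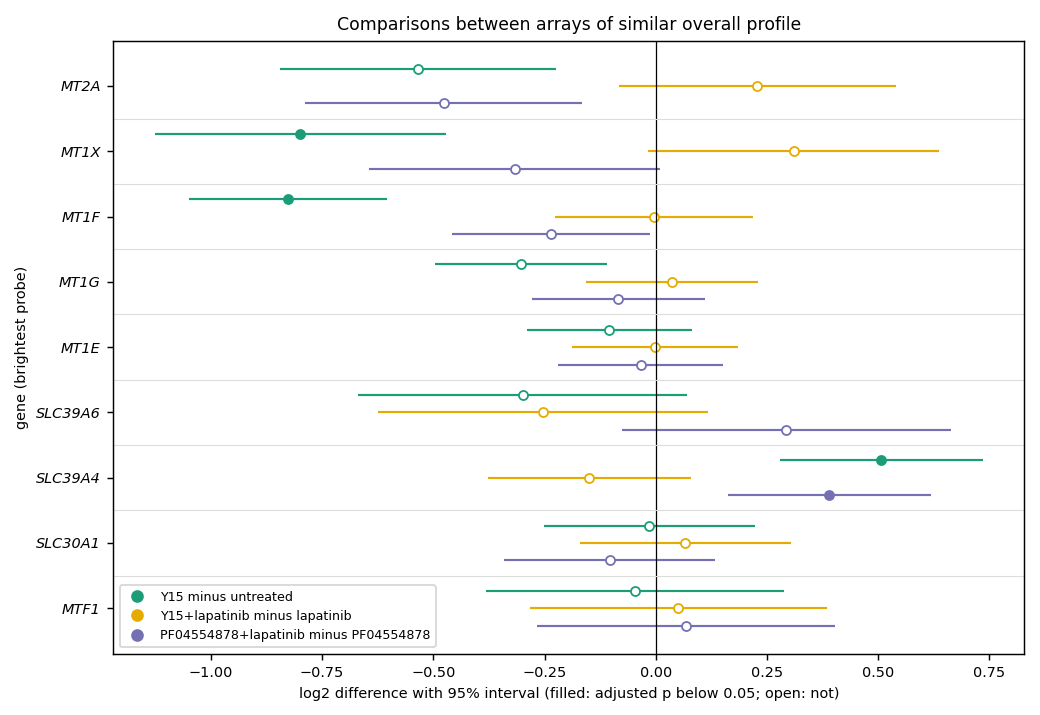
Log2 differences (horizontal axis) with 95% intervals for the 3 comparisons made between arrays of similar overall profile, by gene (vertical axis); filled points have an adjusted p below 0.05. Filled points are MT1X (-0.80), MT1F (-0.83) and SLC39A4 (0.51) for Y15 and SLC39A4 (0.39) for lapatinib added to PF04554878.

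The FAK inhibitors were both given at 1 µM for 24 hours, and compared directly they differed in 6 of the 9 genes, 4 higher and 2 lower with PF04554878, where 46.9% of all genes passed. SLC39A4 was 4.42-fold lower with PF04554878 than with Y15 (-2.14 ± 0.11, adjusted p = 7.34e-10) and reached -3.23 after background subtraction. SLC39A6 was lower as well (-0.73 ± 0.17, 0.00332), although not past the threshold without PF04554878 replicate 2 (-0.44, 0.0685). The metallothioneins MT1F (1.00 ± 0.10, 2.12e-06) and MT1X (0.78 ± 0.15, 0.000774) and the exporter SLC30A1 (0.73 ± 0.11, 7.57e-05) were higher with PF04554878. MT2A was higher too (0.57 ± 0.15, 0.00517), but not past the threshold without Y15 replicate 2 (0.47, 0.0651), without PF04554878 replicate 2 (0.43, 0.0718) or after background subtraction (0.62, 0.0507). The interval of the difference ran from 0.01 to 0.38 for MT1E, from -0.02 to 0.37 for MT1G and from -0.51 to 0.16 for MTF1, none of which passed. After background subtraction both dim metallothioneins did pass, MT1E at 1.18 (adjusted p = 0.00874) and MT1G at 1.39 (0.0285), and SLC30A1 reached 1.49. These groups lie in different sets of arrays.

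Whether a combination differed from the sum of its single drugs was tested by an interaction, the combination minus each drug alone plus untreated. For PF04554878 and lapatinib 6 of the 9 genes passed, 5 positive and 1 negative, where 44.4% of all genes did. SLC39A6 gave 3.38 ± 0.25 (adjusted p = 4.34e-08), MT1F 2.14 ± 0.15 (2.63e-08), SLC39A4 1.60 ± 0.15 (7.66e-07), MT1X 1.16 ± 0.22 (0.000528) and SLC30A1 -0.86 ± 0.16 (0.000436). For SLC39A4 the sum of both changes lay under the background mode of 6.55, so its interaction could hardly be other than positive. For SLC39A6, MT1F and MT1X the level with both drugs lay nearer to that with PF04554878 alone than to that with lapatinib alone. MT1F, for example, averaged 9.55 ± 0.12 (SD, n = 2) untreated, 7.18 ± 0.02 with lapatinib, 9.72 ± 0.02 with PF04554878 and 9.49 ± 0.17 with both. SLC39A4 with both drugs (7.72) was near lapatinib alone (7.76) and above PF04554878 alone (7.33). SLC30A1 was similar with both drugs (7.85), lapatinib (7.99) and PF04554878 (7.96). MT2A was at the threshold (0.54 ± 0.21, 0.0495) and each of 6 of the 8 arrays, left out singly, ended the call (0.33, adjusted p = 0.242, without PF04554878 plus lapatinib replicate 1). Background subtraction (0.154), testing without the filter on dim probes (0.0945) and the intensity trend (0.0505) ended it too. Background subtraction enlarged the interactions of MT1F to 3.42, of SLC39A4 to 2.56 and of SLC30A1 to -1.68.

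For Y15 and lapatinib 3 of the 9 genes gave a called interaction, where 3.04% of all genes did. The 9 were chosen with earlier results of these data known, so this count is a description. MT1X gave 1.11 ± 0.22 (adjusted p = 0.0203), MT1F 0.82 ± 0.15 (0.0139) and SLC39A4 -0.66 ± 0.15 (0.0363). For MT1F the sum of both changes lay under the background mode of 6.55, so its interaction could hardly be other than positive. MT1F was low with lapatinib whether or not Y15 was present (7.18 ± 0.02 and 7.17 ± 0.08), and MT1X with both drugs (8.54 ± 0.10) lay above lapatinib alone (8.23 ± 0.01). All 3 calls were lost with replicate number as a block (adjusted p = 0.0639 for MT1X, 0.0639 for MT1F and 0.148 for SLC39A4) and after background subtraction (0.142, 0.142 and 0.241). They also depended on single arrays: without lapatinib replicate 1 or without Y15 plus lapatinib replicate 1 none of the 3 passed, and without either Y15 array, lapatinib replicate 2 or Y15 plus lapatinib replicate 3 only 1 did. MT2A gave 0.76 ± 0.21 (0.0607).

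Across the 12 arrays MT1X and MT2A correlated at r = 0.958, MT1F and MT1X at 0.935, MT1F and MT2A at 0.866, and MT1F and SLC39A6 at 0.885. SLC39A4 and SLC30A1 correlated at -0.94. These values describe 12 arrays that fall in 3 sets and carry no test. Of 2855 genes whose group means spanned at least 1 unit, the 5 most like MT2A (the metallothionein with the highest mean) were XPR1 at 0.91, LYPD1 at 0.897, PTPRK at 0.895, PTPN4 at 0.891 and NOL11 at 0.886. XPR1, a phosphate exporter, averaged 10.28 untreated, 10.43 with PF04554878, 9.86 with PF04554878 plus lapatinib, 9.81 with Y15, 8.93 with Y15 plus lapatinib and 8.79 with lapatinib. The 5 most like SLC39A6 were TPI1 (the glycolytic triosephosphate isomerase) at 0.993, USP8 at 0.989, RAB10 at 0.987, WWP1 at 0.986 and BRINP3 at 0.985. TPI1 averaged 12.57 untreated and 10.97 with lapatinib.

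Among zinc and metallothionein genes beyond the 10, the exporters and importers did not move as a block. Of 9 other metallothionein genes listed, 7 were named on the array and only MT1H passed the filter. It passed through the untreated arrays and those with PF04554878, where it was highest. MT1H was at least 1.22-fold lower with lapatinib (adjusted p = 0.00067) and with Y15 plus lapatinib (0.000233), and it was below the cutoff in both groups. With PF04554878 plus lapatinib its difference was -0.29 ± 0.10 (0.036).

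Of 12 other SLC39A importers 8 passed the filter. Against untreated, 4 were higher and 2 lower with lapatinib, 4 and 2 with Y15 plus lapatinib, 3 and 3 with PF04554878 plus lapatinib, 2 and 1 with PF04554878 alone, and 0 and 1 with Y15 alone. Over all genes 55.8%, 54%, 45.3%, 44.5% and 4.02% passed in these comparisons, in the same order. With Y15 alone, 5 of the 8 had an unadjusted p under 0.05 in limma's test. SLC39A8 (ZIP8, which carries zinc, manganese and iron) had the largest increases, 2.30 ± 0.10 with PF04554878 (4.91-fold, adjusted p = 1.68e-10), 2.15 ± 0.10 with PF04554878 plus lapatinib (3.02e-10) and 1.31 ± 0.10 with lapatinib (2.95e-08), and read -0.12 ± 0.10 with Y15 (0.562). It ran from 6.93 to 7.13 on the untreated and Y15 arrays, from 8.18 to 8.41 on the arrays of lapatinib without PF04554878 and from 9.15 to 9.49 on those with PF04554878, with no overlap between the 3 sets. A second SLC39A8 probe gave a smaller increase with lapatinib (0.75 ± 0.10, 1.41e-05). The brightest SLC39A3 probe was higher with lapatinib (0.58 ± 0.10, 0.000127) and lower with PF04554878 plus lapatinib (-0.43 ± 0.10, 0.00211). The next brightest was also higher with lapatinib (0.52 ± 0.14, 0.00597), but with PF04554878 plus lapatinib it did not pass (-0.27 ± 0.14, 0.146). The dimmest kept SLC39A3 probe gave 0.04 ± 0.10 (0.789) and 0.05 ± 0.10 (0.746). It averaged 6.83 to 6.88 in these groups, close to the background cutoff, and so decides neither change. SLC39A7, which releases zinc from the endoplasmic reticulum, was higher with lapatinib (0.57 ± 0.11, 0.000595), and SLC39A14 was lower in all treated groups but Y15 (-0.36 to -0.60).

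Of 9 other SLC30A exporters 5 passed the filter. With lapatinib 2 were higher and 1 lower, with PF04554878 2 and 1, with Y15 plus lapatinib 3 and 1, with PF04554878 plus lapatinib 3 and 0, and with Y15 0 and 0 (limma, with 0 at an unadjusted p under 0.05). The shares of all genes that passed were 55.8%, 44.5%, 54%, 45.3% and 4.02%, so 3 of 5 with lapatinib is near the share over all genes. SLC30A9 was higher with lapatinib (0.71 ± 0.11, adjusted p = 4.09e-05), Y15 plus lapatinib (1.07 ± 0.11, 6.17e-07), PF04554878 (0.40 ± 0.11, 0.00677) and PF04554878 plus lapatinib (0.69 ± 0.11, 8.64e-05). SLC30A3 was at least 1.34-fold lower with lapatinib (0.000591) and 1.56-fold higher with PF04554878 (7.03e-05). For SLC30A5, an exporter of the secretory pathway, the direction depended on the probe. The brightest probe was higher with lapatinib (0.42 ± 0.11, 0.00498) and with Y15 plus lapatinib (0.56 ± 0.11, 0.000536). The next brightest gave -0.36 ± 0.15 (0.0618) and -0.57 ± 0.15 (0.00618), the second of these a call in the opposite direction.

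**Figure D4:**
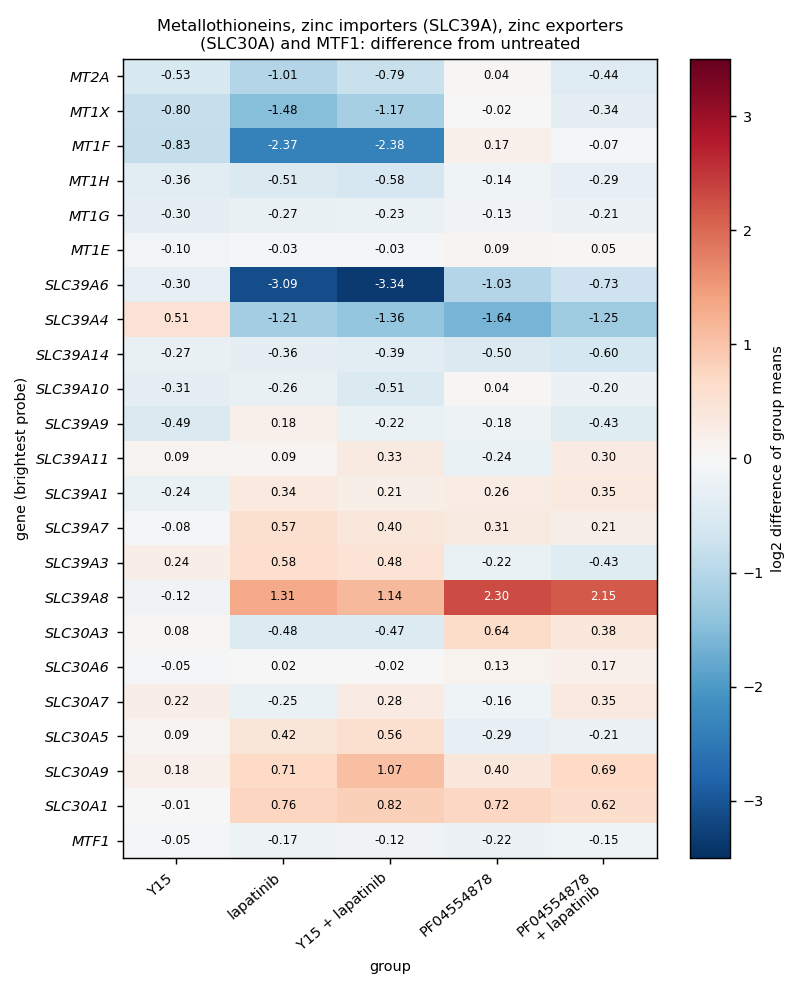
Log2 difference from untreated (colour and printed value) for the metallothioneins, SLC39A importers, SLC30A exporters and MTF1 that passed the background filter (rows) in the 5 treated groups (columns); each value is a difference of means of 2 arrays. SLC39A6 is the lowest row under lapatinib (-3.09) and SLC39A8 the highest under PF04554878 (2.30).

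Copper and iron genes, which share carriers or binding proteins with zinc, moved in both directions. Of 10 copper-handling genes 9 passed the filter, and 5 were higher and 1 lower with lapatinib against 5 and 0 with PF04554878 and 0 and 0 with Y15 (limma, with 2 at an unadjusted p under 0.05). These counts stand beside 55.8%, 44.5% and 4.02% of all genes. SCO2, a copper chaperone of cytochrome oxidase, was 2.73-fold higher with lapatinib (1.45 ± 0.10, adjusted p = 1.49e-08), and SLC31A2, a copper transporter, was higher with lapatinib (0.96 ± 0.09, 5.24e-07) and with PF04554878 (0.92 ± 0.09, 1.77e-06). Of 11 iron-handling genes 9 were named and 8 passed the filter. SLC40A1 (ferroportin, the iron exporter) rose 14.4-fold with lapatinib (3.85 ± 0.13, 2.18e-12), from 7.12 and 7.64 untreated to 11.18 and 11.28, on its brightest probe. A second probe, below the cutoff on untreated arrays, rose at least 3.74-fold (1.07e-09). This second probe passed the background filter through the arrays of lapatinib without PF04554878, where it was high, so its rise is a description. With PF04554878 the brightest probe was below the cutoff, at least 1.49-fold lower than untreated (5.3e-05), and the second was below it in both groups. FTL, the ferritin light chain, was higher with Y15 (0.64 ± 0.11, 0.00439) and lower with lapatinib (-1.41 ± 0.11, 2.86e-08), and TFRC, the transferrin receptor, was higher with lapatinib (1.10 ± 0.15, 2.26e-05) and lower with PF04554878 (-0.74 ± 0.15, 0.00126).

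Glucocorticoids also raise metallothionein transcription, and 9 of 10 listed glucocorticoid target genes passed the filter. With lapatinib 3 were higher and 3 lower, with PF04554878 4 and 1, and with Y15 0 and 0 (limma, with 1 at an unadjusted p under 0.05), where 55.8%, 44.5% and 4.02% of all genes passed. TSC22D3 was 2.09-fold higher with PF04554878 (1.06 ± 0.12, adjusted p = 3.69e-06) and read -0.05 ± 0.12 with lapatinib (0.726), on its brightest probe. A further TSC22D3 probe was also higher with PF04554878 (0.83 ± 0.10, 1.37e-05), and the remaining probes, which averaged under 6.81 in both groups, gave -0.03 ± 0.09 (0.838) and 0.18 ± 0.09 (0.103). FKBP5 was 1.8-fold higher with lapatinib (0.85 ± 0.10, 3.44e-06), and NFKBIA was 1.84-fold lower (-0.88 ± 0.10, 3e-06).

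The genes beside the metallothionein cluster on chromosome 16 were set next to it, taking the 3 nearest measured genes on each side. With lapatinib NUDT21 differed from untreated by -0.08 ± 0.14 (adjusted p = 0.682), OGFOD1 by -0.03 ± 0.09 (0.818) and BBS2 by -0.58 ± 0.10 (0.000257) on one side. On the other side NUP93 differed by -0.28 ± 0.09 (0.0215), PSME3IP1 by 0.19 ± 0.10 (0.135) and RSPRY1 by -0.41 ± 0.12 (0.00944). BBS2, NUP93 and RSPRY1 thus passed the test downward, where 28% of all genes did. The differences of MT2A, MT1X and MT1F (-1.01, -1.48 and -2.37) lay below all 6 of these neighbours.

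Around SLC39A6 on chromosome 18 the neighbours were lower too. With lapatinib ELP2, which encodes an Elongator subunit, differed by -1.77 ± 0.13 (adjusted p = 2.77e-08), and MOCOS, the molybdenum cofactor sulfurase next to it, was below the cutoff on both lapatinib arrays and at least 4.03-fold lower (5.04e-11). On the other side RPRD1A differed by -1.42 ± 0.12 (6.83e-08), RMP24 by -0.67 ± 0.10 (5.86e-05) and GALNT1 by -0.10 ± 0.09 (0.396), and TPGS2 beyond MOCOS by -0.54 ± 0.11 (0.000717). Of these 6 neighbours 5 passed the test downward, where 28% of all genes did. Whether these differences share a source was not tested.

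**Figure D5:**
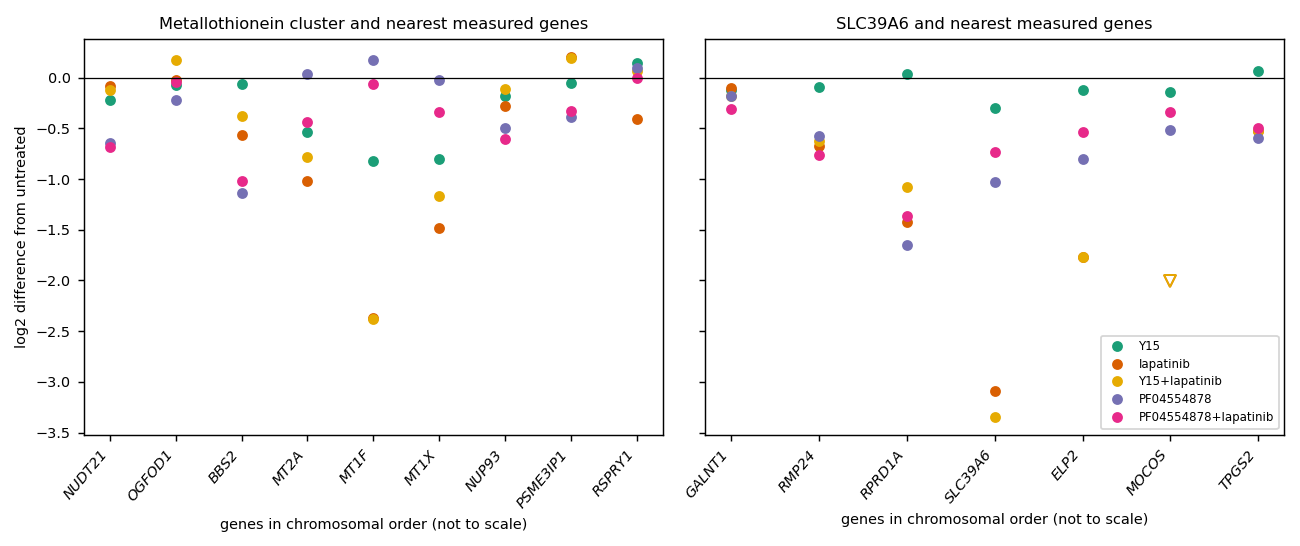
Log2 difference from untreated (vertical axis) for MT2A, MT1F and MT1X and for SLC39A6 with the 3 nearest measured genes on each side (horizontal axis, chromosomal order, not to scale), for 5 treated groups; lapatinib points lie under those of Y15 plus lapatinib where both coincide, and open triangles are bounds, set at the cutoff, for groups below it on both arrays. With lapatinib the flanking genes of the cluster lie between -0.58 and 0.19, and those of SLC39A6 between -1.77 and -0.10 apart from MOCOS, whose bound is -2.01.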

How the data were processed

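The values used are log2 probe intensities that the authors deposited, normalized between arrays. The submitters' processing notes name GenomeStudio. How background was treated is not given in the sources used here. Values ran from 6.2 to 13.9, and once sorted the 12 columns agreed to within 0.0146. A second deposited table was not used, because its 24 per-sample columns match no label.

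Background was the mode of all values, 6.55, and the cutoff of 6.81 lay 3 SD above it, with an SD of 0.0845 from the values below the mode. Probes above it on at least 2 arrays were kept, 19558 in all. Of 47318 probes 30111 had 1 gene symbol in GEO's platform annotation, 8 had several and 17199 none. Updating symbols through gene numbers changed 0. A gene was read from its brightest kept probe (11440 genes). A group with both arrays under the cutoff gives a fold that is a lower bound against the cutoff. The number of arrays limits the precision. About 33.9% of probes exceeded the cutoff on each array, a share that follows from their nearly equal distributions of values.

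All 12 arrays entered a fit of 6 group means with limma 3.58.1 in R 4.3.3 (lmFit, contrasts.fit and eBayes), with 6 residual degrees of freedom and 9.04 from the prior. P-values were adjusted by Benjamini-Hochberg over the 19558 probes within each of 10 comparisons, with a threshold of 0.05. In data simulated for Y15 against untreated with 19558 probes, 54% of increases of 0.5, 68% of decreases of 0.5, 92% of increases of 1 and 100% of decreases of 2 were called, and 7 of 19358 unchanged probes.

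Alternatives were no filter, a filter on all 12 arrays, 1 probe per gene, only the groups compared, replicate numbers as a block, background subtraction, an intensity trend in the prior, and leaving out each array. The 10 genes and the wider lists were chosen with earlier results of these data known. Named were all 10 genes with every probe. Of the wider lists, genes with the smallest adjusted p against untreated or with group means spanning over 1 unit were named. The 5 genes most like MT2A and SLC39A6 were also named, and the neighbouring genes were chosen by position alone. Slides and scan dates were not used here.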

Additional observations from a re-analysis of the deposited data

Results flagged for a closer look

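For 6 genes limma's interaction test of lapatinib with a FAK inhibitor, over all 12 arrays without a block, passed the threshold. With PF04554878 the interaction on the log2 scale was 3.38 for SLC39A6, 2.14 for MT1F, 1.60 for SLC39A4, 1.16 for MT1X, 0.54 for MT2A and -0.86 for SLC30A1. The MT2A call (adjusted p = 0.0495) was lost after background subtraction (0.154), without the filter on dim probes (0.0945) and with the intensity trend (0.0505). Leaving out single arrays ended the MT2A call in most cases. With Y15 the interaction was 1.11 for MT1X, 0.82 for MT1F and -0.66 for SLC39A4, where 3.04% of all genes passed. These Y15 calls were all lost with replicate number as a block (adjusted p = 0.0639 for MT1X, 0.0639 for MT1F and 0.148 for SLC39A4) and after background subtraction (0.142, 0.142 and 0.241). The PF04554878 interactions compare arrays from 3 sets of unlike overall profile, and 44.4% of all genes passed that test. What separates the sets cannot be told apart from the treatments. For SLC39A4 with PF04554878 and for MT1F with Y15, the sum of the single changes lay under the background mode of 6.55. Those interactions could therefore hardly be other than positive.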

How the results depend on the processing

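Of 1042 values recomputed for single probes, 933 kept their direction and side of the threshold, 61 lost the call and 9 gained it, and 39 changed sign. Of those 39, 0 were past the threshold in either version, and their largest main size was 0.17. The 7 genes called for lapatinib, the 7 for Y15 plus lapatinib, the 4 for PF04554878 plus lapatinib and the 3 for PF04554878, each against untreated, stayed within 1.5 times of these counts under every alternative, as did the 6 for PF04554878 against Y15 and the 6 for its interaction with lapatinib. For Y15 against untreated, 3 genes became 0 with background subtraction, 1 with only the groups compared and 1 to 3 without single arrays. For Y15 added to lapatinib, 0 became 1 with only the groups compared. For lapatinib added to PF04554878, 1 became 0 with the replicate block, background subtraction and the intensity trend, and 0 to 1 without single arrays. For the Y15 interaction, 3 became 0 with the replicate block and background subtraction, and 0 to 3 without single arrays.

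Probes called for Y15 went from 659 to 437 with the replicate block, 124 with background subtraction, 49 with only the groups compared and 99 to 1601 without single arrays. For Y15 added to lapatinib 1845 became 814 with the block, 442 with background subtraction and 381 to 938 without single arrays. For lapatinib added to PF04554878 1281 became 529 with background subtraction and 471 to 698 without single arrays. For the Y15 interaction 523 became 34 with the block, 49 with background subtraction, 297 with only the groups compared and 44 to 1376 without single arrays. With 1 probe per gene, where fewer features are tested, lapatinib gave 6463 of 10036, Y15 plus lapatinib 6304 of 9625 and the PF04554878 interaction 5210 of 7828. The causes of the other changes were not tested.

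Sign changes were small. With the replicate block they were MTF1 0.043 for Y15 plus lapatinib, MT1F 0.032 and SLC30A1 -0.082 for Y15 added to lapatinib, and SLC39A6 -0.032 and SLC30A1 -0.068 for the Y15 interaction, and with background subtraction SLC39A6 -0.016 for that interaction. Without single arrays, Y15 against untreated ran from -0.086 to 0.057 for SLC30A1 and from -0.26 to 0.16 for MTF1. PF04554878 ran from -0.15 to 0.11 for MT1X and from -0.11 to 0.18 for MT2A. MTF1 ran from -0.36 to 0.023 with lapatinib, from -0.33 to 0.095 with Y15 plus lapatinib and from -0.34 to 0.041 with PF04554878 plus lapatinib, where MT1F ran from -0.19 to 0.054 and MT1E from -0.031 to 0.14. For Y15 added to lapatinib the ranges were -0.062 to 0.054 for MT1F, -0.017 to 0.013 for MT1E, -0.16 to 0.26 for MTF1, -0.018 to 0.091 for MT1G and -0.10 to 0.24 for SLC30A1. For lapatinib added to PF04554878 they were -0.12 to 0.051 for MT1E and -0.027 to 0.16 for MTF1, and for PF04554878 against Y15 -0.38 to 0.039 for MTF1. For the Y15 interaction they were -0.11 to 0.20 for SLC39A6, -0.12 to 0.31 for MTF1 and -0.088 to 0.25 for SLC30A1, and for the PF04554878 interaction -0.091 to 0.080 for MT1E.

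Replicate numbers did not pair the samples: over 10 pairs of same-numbered arrays from 5 groups the deviations correlated at -0.293 to 0.111, with 1 above 0.1. Besides the changes above, the block ended the MT1G call for Y15 plus lapatinib (-0.25, adjusted p = 0.109). Leaving out 1 array assumes that the remaining one varies like the other groups. Dim probes limit MT1E and MT1G.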

Other observations

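From the wider lists, 4 further metal-handling genes are described here, and they are not all of those that changed. Over all genes 44.5% passed the test with PF04554878 and 55.8% with lapatinib. ACO1, an iron-responsive aconitase, was 2.12-fold higher with PF04554878 (1.09 ± 0.11, adjusted p = 1.57e-06, limma) and 1.64-fold higher with lapatinib (0.71 ± 0.11, 5.56e-05). ATP7B, a copper-exporting ATPase, was 1.69-fold higher with PF04554878 (0.75 ± 0.10, 1.92e-05), and COMMD1, a regulator of copper transporters, was higher with PF04554878 (0.65 ± 0.11, 0.000239) and lower with lapatinib (-0.35 ± 0.11, 0.0149). ATOX1, the copper chaperone of the secretory pathway, was higher with lapatinib (0.53 ± 0.14, 0.00485) and lower with PF04554878 plus lapatinib (-0.72 ± 0.14, 0.000715).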
